A study of Homo sapiens with 6 samples.

Results

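The transcripts of 57 genes of DNA repair and DNA damage signalling were followed in the human line MDA-MB-231, which derives from triple-negative breast cancer and looks mesenchymal. The genes were chosen by name, and each matched exactly 1 of the 60461 rows of the gene count table. All 57 passed the filter on low counts, out of 18899 genes that did. Total RNA was sequenced from 3 libraries of cells given an adenovirus for ADAR1 p110 and 3 libraries of cells given a control adenovirus for enhanced green fluorescent protein (eGFP, here GFP). All 6 cultures thus carried an adenoviral vector at a multiplicity of infection of 200, received fresh medium at 16 h and were extracted at 48 h. ADAR1 deaminates adenosine to inosine where RNA is double-stranded. Its p110 form is constitutive and mainly nuclear. The replicates are called biological without a description of how the cultures were separated, so every p-value measures the spread between these libraries. Untransduced cells were not analysed here.

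DNA damage is met by pathways that each deal with 1 kind of lesion. Nucleotide excision repair cuts out bulky adducts, mismatch repair corrects replication errors, and the Fanconi pathway unhooks crosslinks between the DNA strands. Double-strand breaks are either ligated directly by end joining or resected and copied from the sister chromatid by homologous recombination, which operates in S and G2 phase. Kinases that sense broken or single-stranded DNA delay the cell cycle while repair proceeds. Many genes of recombination, mismatch repair and the Fanconi pathway are transcribed under E2F factors as cells enter S phase, and many share a short promoter with a gene that reads in the opposite direction.

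Of the 57 genes 2 rose and none fell (edgeR's quasi-likelihood test, p under 0.05 after Benjamini-Hochberg adjustment over all 18899 tested genes). They were XPC, which recognises helix-distorting lesions in nucleotide excision repair, and MRE11, the nuclease of the complex that senses and trims broken DNA ends. Their share, 3.51%, lay beside 4.91% of all tested genes called in either direction, 1.95% higher and 2.96% lower. Those were 368 and 559 genes, and 510 and 479 with scaling by library size alone, where 3 of the 57 genes were called higher and none lower. At an unadjusted p under 0.05 there were 10 of the 57 genes, or 17.5%, beside 18.6% of all tested genes. At an average of at least 5 CPM the edgeR test called 3.70% of 54 repair genes, beside 7.03% of such tested genes. An unadjusted p under 0.05 was found for 18.5% and 24.4% of them. With DESeq2 3 of the 57 genes were called higher and none lower, beside 591 and 711 of all 18899. With limma-voom they were 2 and none, beside 372 and 586. In the edgeR test the share of repair genes called in either direction was not above that of all tested genes.

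The promoters of both genes that rose are printed here because each overlaps the promoter window of a gene on the other strand. They are RefSeq windows of 300 bases, from 250 before to 50 after the annotated start, on GRCh38.p14 and 5′ to 3′ on the strand of the gene. Capitals mark matches to 7 kinds of motif searched on both strands: E2F (TTTGGCGC or TTTCCCGC, with the cores TTGGCGC or TTCCCGC inside them), the NF-Y box (CCAAT), the GC box (GGGCGG), NRF1 (GCGCATGC), the cyclic AMP response element (TGACGTCA), ETS (CCGGAAG) and the CHR element of cell cycle genes (TTTGAA).
XPC, chr3:14178552-14178851, minus strand: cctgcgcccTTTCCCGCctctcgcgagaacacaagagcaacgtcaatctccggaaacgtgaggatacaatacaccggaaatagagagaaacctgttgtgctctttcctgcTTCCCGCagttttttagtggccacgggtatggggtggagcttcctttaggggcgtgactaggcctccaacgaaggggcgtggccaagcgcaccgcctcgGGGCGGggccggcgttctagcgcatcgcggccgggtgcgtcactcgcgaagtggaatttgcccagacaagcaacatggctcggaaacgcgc
MRE11, chr11:94493795-94494094, minus strand: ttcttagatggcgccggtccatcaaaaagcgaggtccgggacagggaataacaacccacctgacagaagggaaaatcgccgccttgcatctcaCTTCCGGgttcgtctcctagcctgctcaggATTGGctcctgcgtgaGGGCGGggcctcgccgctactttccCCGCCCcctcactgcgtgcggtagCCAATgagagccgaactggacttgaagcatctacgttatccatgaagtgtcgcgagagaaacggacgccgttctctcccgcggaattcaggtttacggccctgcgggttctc
The XPC window held 1 E2F match of 8 bases, a further E2F core and 1 GC box, and the MRE11 window held 2 NF-Y boxes, 2 GC boxes and 1 ETS match. The window of LSM3, an RNA-binding protein gene read away from XPC, shared 285 of the 300 bases with that of XPC. The window of ANKRD49 shared 239 of the 300 bases with that of MRE11.

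XPC (ENSG00000154767.14_3, hg19 chromosome 3, 14186647 to 14220283, minus strand) had 14.9, 17.1 and 16.5 CPM (counts divided by library size, so that libraries can be compared) in ADAR1 p110 replicates 1, 2 and 3. In GFP replicates 1, 2 and 3 it had 12.4, 12.8 and 13.5 CPM. All 3 ADAR1 p110 libraries lay above all GFP libraries, with ADAR1 p110 replicate 1 nearest to the controls. The means were 16.2 ± 1.12 against 12.9 ± 0.550 CPM (SD, n = 3 each), a log2 fold change of 0.32 (SE 0.0743, 95% interval 0.16 to 0.49, edgeR adjusted p = 0.0311). LSM3, whose 5′ end overlaps that of XPC on the other strand and which had 374% as many counts, had a log2 fold change of -0.04 (edgeR adjusted p = 0.776). The SE for LSM3 was 0.0559, so the sign of its difference is not settled, and the difference between the pair was not tested.

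MRE11 (ENSG00000020922.12_3, hg19 chromosome 11, 94148744 to 94227074, minus strand) had 47.0, 46.7 and 47.1 CPM in the ADAR1 p110 libraries and 39.3, 42.4 and 39.5 CPM in the GFP libraries. The groups did not overlap, and the ADAR1 p110 libraries lay closer together than the controls. Its log2 fold change was 0.22 (SE 0.0541, 95% interval 0.10 to 0.34, edgeR adjusted p = 0.0469), which is close to the threshold. ANKRD49 had 17.0, 16.8 and 17.7 CPM against 16.6, 16.4 and 15.5 CPM and did not pass, at a log2 fold change of 0.09. The call of XPC was lost in 5 of the 6 fits that each left out 1 library, being kept without ADAR1 p110 replicate 1, with adjusted p from 0.00607 to 0.133. That of MRE11 was lost in 4 of them, without ADAR1 p110 replicate 2 or 3 or GFP replicate 1 or 3, with adjusted p from 0.0326 to 0.195. The log2 fold change stayed between 0.29 and 0.38 for XPC and between 0.20 and 0.26 for MRE11 in those fits.

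Small positive differences were spread over the set. The fitted log2 fold change was above 0 for 41 of the 57 genes, or 71.9%, and for 51.2% of all tested genes. Its median was 0.04, beside 0.00 over all tested genes, and with scaling by library size alone these were 0.06 and 0.03. In 12 genes all ADAR1 p110 libraries lay above all GFP libraries and in 2 they lay below, that is 21.1% and 3.51%, where 11.8% and 12.2% of all tested genes did so. The 2 genes below were TP53BP1 and CHEK1. Of the 10 genes with an unadjusted p under 0.05, 9 were higher and 1 lower. Over all tested genes 3523 had such a p, 1741 of them higher and 1782 lower.

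The precision was enough to bound most differences. The 95% interval of the fold change lay within 1.5-fold either way for 56 of the 57 genes, or 98.2%, and for 64.8% of all tested genes. At an average of at least 5 CPM it did so for all 54 such repair genes and for 96.7% of all such tested genes. The exception among the 57 was ATRIP, at 0.285 to 0.592 CPM, whose interval ran from -0.32 to 1.09. A gene that did not pass the test is therefore not shown to be unaltered, but a change of 1.5-fold or more lay outside the interval of every gene except ATRIP.

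**Figure D1:**
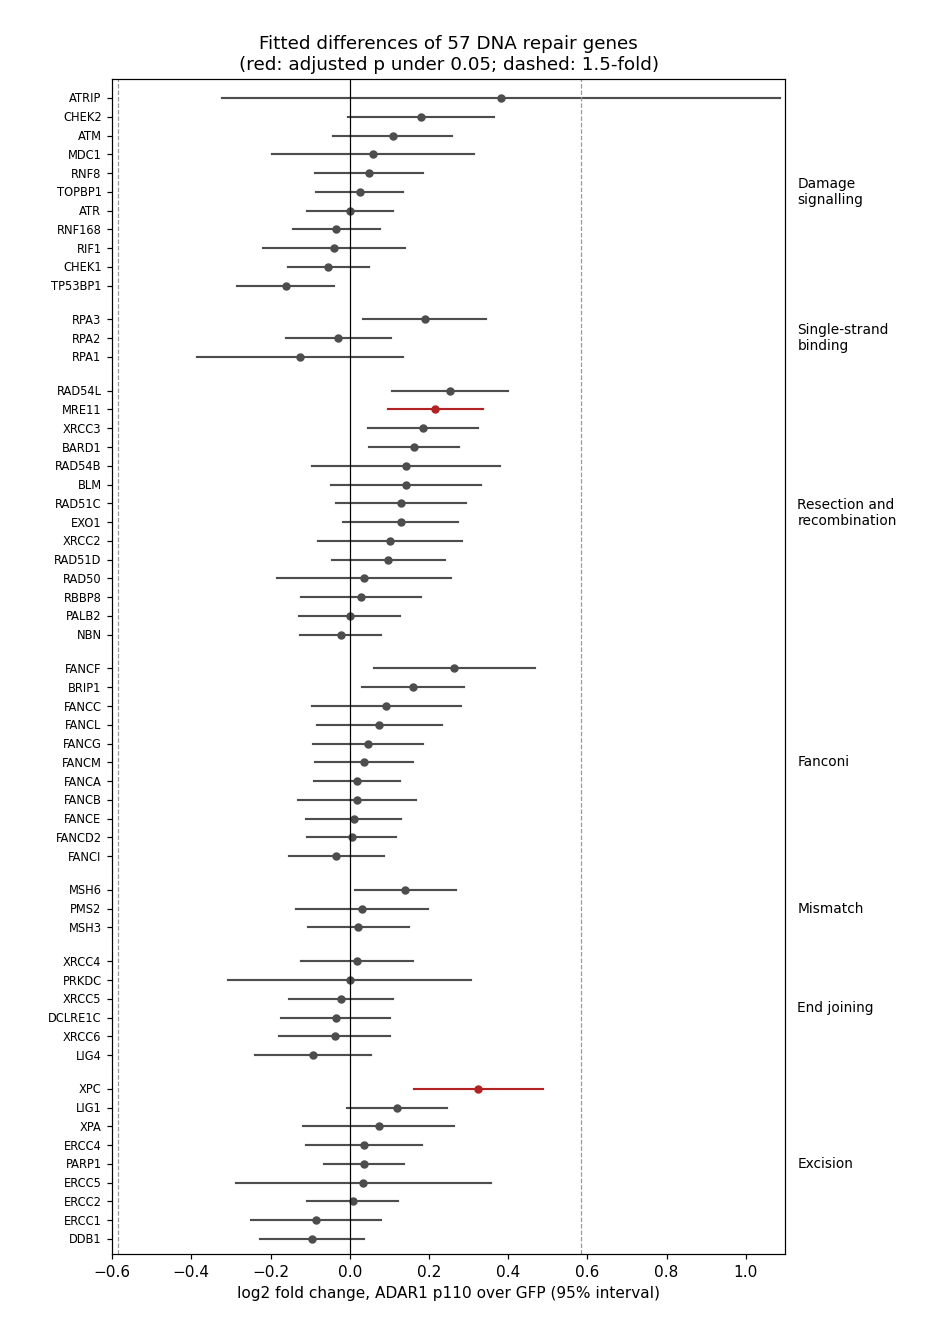
Fitted log2 fold change between ADAR1 p110 and GFP libraries (horizontal axis, positive where ADAR1 p110 was higher) with its 95% interval for each of the 57 repair genes, grouped by role, with genes that passed the test in red and dashed lines at 1.5-fold. XPC and MRE11 are the red points, at 0.32 and 0.22, and the interval of ATRIP alone crosses a dashed line.

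Break resection and homologous recombination held 14 of the genes, and 12 of them had a positive log2 fold change, with a median of 0.13. Only MRE11 passed, and 4, or 28.6%, had an unadjusted p under 0.05 in the edgeR test. That lay beside 18.6% of all tested genes and 24.4% of those at an average of at least 5 CPM. The largest log2 fold change was in RAD54L, a motor protein that drives strand invasion, with 17.3, 16.5 and 18.4 CPM in the ADAR1 p110 libraries and 14.6, 14.7 and 14.5 CPM in the GFP libraries. The groups did not overlap and the GFP libraries were nearly equal, yet the gene missed the threshold (log2 fold change 0.25, 95% interval 0.11 to 0.40, edgeR adjusted p = 0.0573). It passed with DESeq2, with library size alone and with a filter at 1 CPM (adjusted p = 0.0321, 0.0420 and 0.0417). With edgeR it also passed when ADAR1 p110 replicate 1 was left out alone or together with GFP replicate 2 (0.0464 and 0.0285). It missed with DESeq2 size factors in edgeR, with no low-count filter, with limma-voom and with a replicate block. Leaving out any of the other libraries alone also gave no call. RAD54L overlaps LRRC41 on the other strand over 17278 bases, and LRRC41 had 712% as many counts with a log2 fold change of -0.08.

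XRCC3, one of the paralogs of the strand-exchange recombinase, had 41.3, 46.5 and 44.1 CPM against 39.8, 36.6 and 39.7 CPM. BARD1, a ubiquitin ligase subunit that promotes recombination, had 45.9, 45.0 and 44.9 CPM against 39.2, 40.9 and 41.2 CPM. Both had groups that did not overlap, with log2 fold changes of 0.19 (95% interval 0.05 to 0.32) and 0.16 (95% interval 0.05 to 0.28) and edgeR adjusted p of 0.138 and 0.115. KLC1 overlaps XRCC3 from the opposite strand, and its counts were 111% of those of XRCC3. The paralogs RAD51C, RAD51D and XRCC2 were at 0.13, 0.10 and 0.10, the helicase BLM and the translocase RAD54B both at 0.14 and the exonuclease EXO1 at 0.13, with no call among them. Of the partners of MRE11 in its complex neither passed, and their differences from MRE11 were not tested. RAD50 was at 0.04 (95% interval -0.18 to 0.26) and NBN at -0.02 (95% interval -0.12 to 0.08). NBN was the most abundant of these 14 genes per length, at 23.8 ± 0.157 CPM per kb of gene length in GFP cells (SD, n = 3), and its 6 libraries ran only from 143 to 148 CPM. The end-resection factor RBBP8 and the scaffold PALB2 were at 0.03 and 0.00.

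The Fanconi genes comprised 10 FANC genes and the helicase gene BRIP1, with a median log2 fold change of 0.04 and no call. FANCF, an adaptor of the core ubiquitin ligase complex, had 6.70, 5.93 and 5.87 CPM in ADAR1 p110 libraries and 4.89, 5.40 and 5.11 CPM in GFP libraries, groups that did not overlap (log2 fold change 0.26, 95% interval 0.06 to 0.47, edgeR adjusted p = 0.149). BRIP1 had 60.6, 57.9 and 65.3 CPM against 53.9, 56.1 and 54.6 CPM, also without overlap (log2 fold change 0.16, adjusted p = 0.165 in the same edgeR test). The core complex was otherwise close to level, with FANCA at 0.02, FANCB at 0.02, FANCE at 0.01, FANCG at 0.05, FANCL, the ligase itself, at 0.07 and FANCC at 0.09. The translocase FANCM was at 0.04. FANCD2 and FANCI, the pair that the complex ubiquitinates, were at 0.00 and -0.03, with intervals of -0.11 to 0.12 and -0.15 to 0.09. FANCE had the highest level per length, 22.8 ± 0.328 CPM per kb in GFP cells (SD, n = 3), with 55.5, 61.0 and 59.1 CPM in ADAR1 p110 libraries and 57.6, 57.7 and 59.1 CPM in GFP libraries.

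Of the mismatch repair genes, MSH6, which with a common partner recognises single-base mismatches, had 209, 219 and 236 CPM against 193, 200.1 and 209 CPM. The lowest ADAR1 p110 library was barely above the highest GFP library, and the gene did not pass (log2 fold change 0.14, 95% interval 0.01 to 0.27, edgeR adjusted p = 0.223). MSH6 was also the most abundant of the 3 per length, at 18.2 CPM per kb in GFP cells. MSH3, which with the same partner recognises larger loops, was at 0.02 and the endonuclease subunit PMS2 at 0.03. PMS2 has near-identical copies elsewhere in the genome, so its count is uncertain.

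Among the end joining genes differences were small, with 5 of 6 genes below 0, a median log2 fold change of -0.03, no unadjusted p under 0.05 and no group separated from the other. It also holds the most abundant genes. XRCC6 and XRCC5, the subunits of the Ku ring that grips broken ends, stood at 178 ± 6.61 and 101 ± 4.77 CPM per kb in GFP cells (SD, n = 3). XRCC6 had 519, 605 and 590.3 CPM in ADAR1 p110 libraries and 601, 562 and 597 CPM in GFP libraries, and its log2 fold change of -0.04 had an interval of -0.18 to 0.10. XRCC5 was at -0.02. PRKDC, the catalytic subunit of the DNA-dependent protein kinase, was at 0.00 but with a wide interval (-0.31 to 0.31). LIG4, the ligase of the pathway, had the smallest p of the 6, with 29.3, 25.5 and 26.9 CPM against 29.4, 29.8 and 27.9 CPM (log2 fold change -0.09, edgeR adjusted p = 0.522). Its partner XRCC4 and the nuclease DCLRE1C were at 0.02 and -0.04.

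Among 9 excision repair genes only XPC passed. LIG1, the ligase that seals repair patches and replication fragments, had 69.8, 72.6 and 76.8 CPM against 68.2, 64.0 and 69.4 CPM, all ADAR1 p110 libraries above the controls, and missed the threshold (log2 fold change 0.12, 95% interval -0.01 to 0.25, edgeR adjusted p = 0.296). DDB1, the adaptor of the ligase that flags ultraviolet damage, was the most abundant per length at 42.3 CPM per kb in GFP cells. It had 515, 567 and 575 CPM in ADAR1 p110 libraries and 603, 556 and 609.7 CPM in GFP libraries, which overlapped (log2 fold change -0.09, 95% interval -0.23 to 0.04). None of the factors that act after XPC passed. The helicase ERCC2 was at 0.01, the scaffold XPA at 0.07, the nucleases ERCC4 and ERCC5 at 0.04 and 0.03, and ERCC1, the partner of ERCC4, at -0.09. ERCC1 overlaps FOSB on the other strand, which had 98.8% as many counts and was called higher at a log2 fold change of 0.93. PARP1, which marks strand breaks, had 149 to 156 CPM in all 6 libraries, at a log2 fold change of 0.04.

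The 11 damage signalling genes gave no call. TP53BP1, which shields broken ends from resection, had the smallest p of the 11 and the lowest log2 fold change of the 57 genes, with 96.9, 91.9 and 91.0 CPM in the ADAR1 p110 libraries and 99.5, 110.1 and 103 CPM in the GFP libraries. The groups did not overlap, but the gene missed the threshold (log2 fold change -0.16, 95% interval -0.28 to -0.04, edgeR adjusted p = 0.142), passing only without ADAR1 p110 replicate 1 (adjusted p = 0.0449) or without that library and GFP replicate 2 together (0.0291). RIF1, which acts with TP53BP1, was at -0.04. The effector kinase CHEK1 was the most abundant per length, at 19.7 CPM per kb in GFP cells, with 125, 123 and 126 CPM against 132, 127 and 129 CPM (log2 fold change -0.05, 95% interval -0.16 to 0.05, edgeR adjusted p = 0.601). CHEK2, the effector kinase downstream of ATM, lay on the other side, with 11.2, 11.7 and 13.0 CPM against 11.1, 10.9 and 9.76 CPM and a log2 fold change of 0.18 (edgeR adjusted p = 0.279). The kinases that sense damage, ATM and ATR, were at 0.11 and 0.00, the ATR activator TOPBP1 at 0.03, the chromatin adaptor MDC1 at 0.06 and the ubiquitin ligases RNF8 and RNF168 at 0.05 and -0.03.

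The subunits of replication protein A, which coats single-stranded DNA, had fitted differences of both signs. RPA3 had 35.7, 38.3 and 37.2 CPM against 34.1, 29.2 and 34.2 CPM, with the ADAR1 p110 libraries all higher (log2 fold change 0.19, 95% interval 0.03 to 0.34, edgeR adjusted p = 0.172). RPA2, the most abundant of the 3 per length, had 50.9, 55.5 and 56.7 CPM against 56.4, 52.9 and 57.2 CPM and a log2 fold change of -0.03. RPA1 was at -0.13 (95% interval -0.39 to 0.13). None of the 3 was called, and differences between subunits were not tested.

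**Figure D2:**
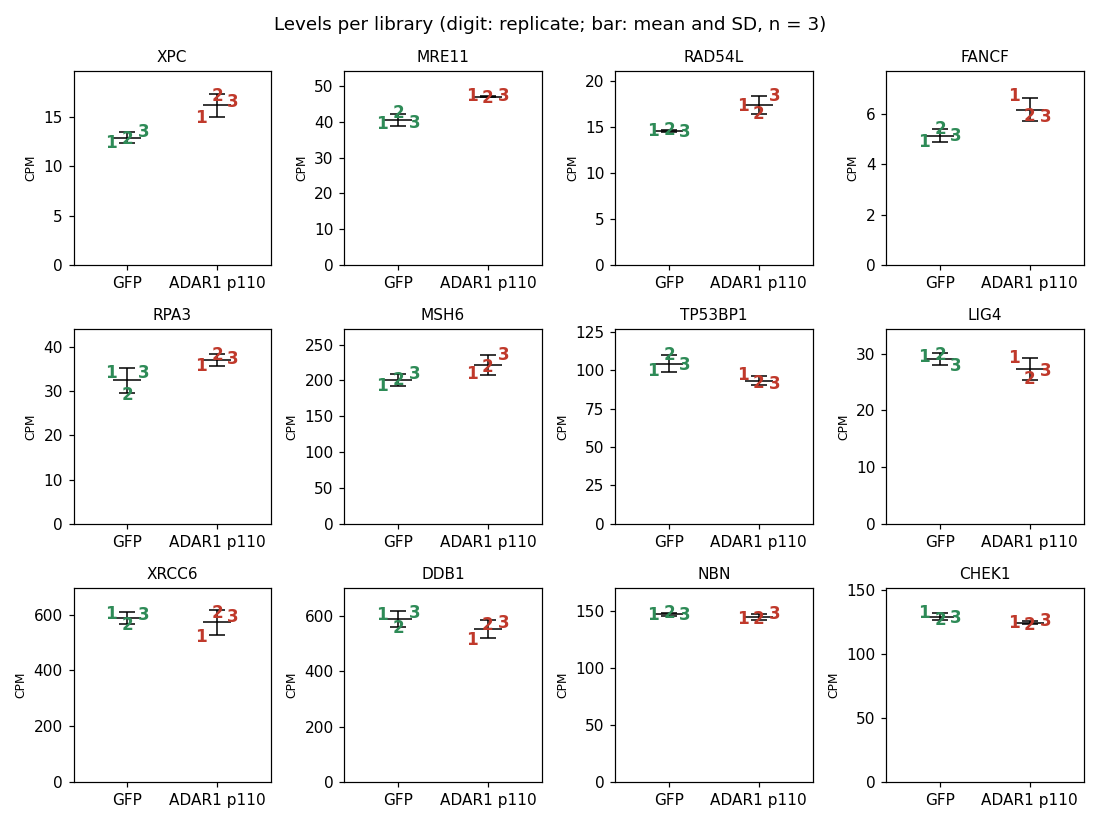
CPM (vertical axis, from 0) of 12 repair genes in GFP libraries (green) and ADAR1 p110 libraries (red), with replicate numbers as points, with a bar for the mean and a line spanning the SD (n = 3 per group). XPC, MRE11, RAD54L, FANCF and RPA3 have all red points above the green ones, TP53BP1 and CHEK1 all below, and XRCC6 and DDB1 overlap.

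Markers of the cell cycle are given beside the recombination genes, of which 1 of 14 rose. Of 17 genes of S phase 4 rose and none fell, with a median log2 fold change of 0.10, and of 16 genes of mitosis 4 rose and none fell, with a median of 0.15. Those are 23.5% and 25.0%, beside 7.14% of the recombination genes and 1.95% of all tested genes called higher. The S-phase genes that passed were GINS1, GINS2, MCM6 and E2F1, at 0.29, 0.27, 0.23 and 0.28, and those of mitosis were PLK1, CENPA, KIF20A and ANLN, at 0.27, 0.34, 0.28 and 0.25. As a mean of log2 CPM relative to all 6 libraries, the 14 recombination genes lay at 0.03, 0.04 and 0.09 in ADAR1 p110 replicates 1, 2 and 3 and at -0.08, -0.07 and -0.02 in the GFP replicates. The S-phase genes lay at 0.01, 0.08 and 0.09 and at -0.05, -0.10 and -0.04. The 11 Fanconi genes lay at 0.02, 0.02 and 0.05 and at -0.06, 0.00 and -0.03. The end joining genes lay at 0.00, -0.01 and -0.04 and at 0.01, 0.01 and 0.03. Groups of genes were not tested, and the part of the cell cycle in the recombination genes was not tested. In cultures of this kind, more cells in S phase and more RNA per cell cannot be told apart.

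**Figure D3:**
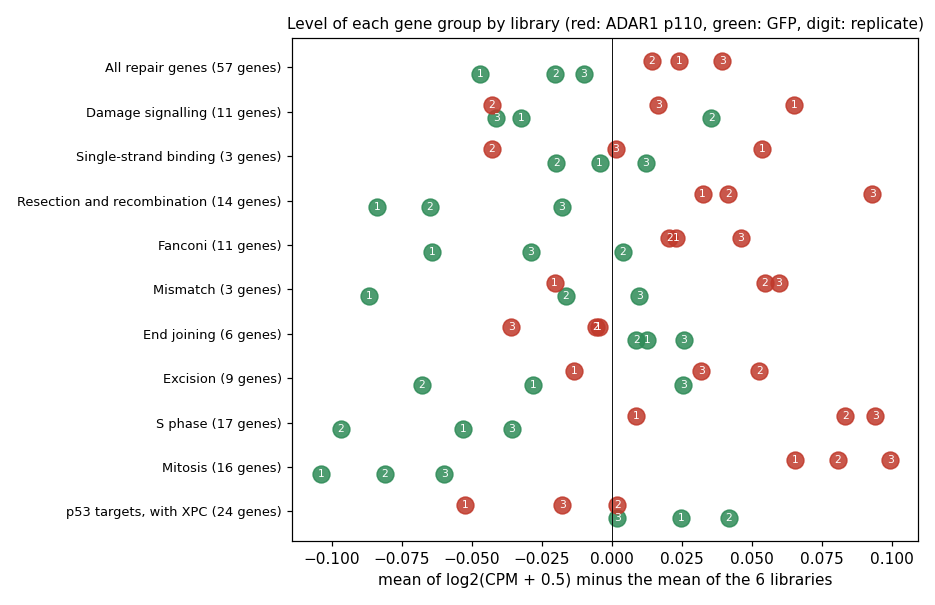
Average over genes of log2(CPM + 0.5), centred on all 6 libraries (horizontal axis), for the repair genes, their role groups and 3 other lists, with replicate numbers in the points (red for ADAR1 p110, green for GFP). All 57 repair genes together, the recombination, Fanconi, S-phase and mitosis groups have all red points to the right of the green ones, and the end joining group has them to the left.

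Promoter sequence was compared because E2F factors are known to drive repair genes in S phase. Windows were found for 50 of the 57 genes. An E2F match of 8 bases lay in 8 of them, or 16.0%, and in 3.06% of the 15843 windows of protein-coding genes. Each match is shown in capitals with up to 10 bases on either side, read on the strand of the match, on GRCh38.p14.
FANCC, chr9:95317738-95317765: tcgtcggaatTTTCCCGCgacgccgcgg
FANCD2, chr3:10026425-10026452: agttttcgacTTTCCCGCcaggcccgac
LIG1, chr19:48170441-48170468: cttcacccctTTTCCCGCcctcctccca
MSH3, chr5:80654535-80654562: cgcggtcaagTTTGGCGCgaaattgtgg
MSH6, chr2:47783138-47783165: tccccccagaTTTCCCGCcagcaggagc
XPC, chr3:14178825-14178851: cctgcgcccTTTCCCGCctctcgcgag
XRCC2, chr7:152676103-152676130: gagactcaacTTTCCCGCcaccaacgcc
XRCC6, chr22:41621327-41621344: TTTGGCGCagggaagcga
The shorter E2F core, which those matches contain, lay in 22 of the 50 windows, or 44.0%, beside 12.3% of all windows. Among the 22 genes with the core, 20 had a log2 fold change above 0, the median was 0.08 and in 8 all ADAR1 p110 libraries lay above the GFP libraries. Among the 28 without it, 19 were above 0, the median was 0.03, 3 were separated upwards and 2 downwards, where none with the core was. Both sets held 1 called gene, XPC with the core and MRE11 without, and the difference between the sets was not tested. Of the 7 genes with no window, 2 were above 0 and 1 was separated upwards. Over all tested genes 51.2% were above 0 and 11.8% were separated upwards, and these were not split by the core. A GC box lay in 42 of the 50 windows against 58.5% of all, an ETS match in 28.0% against 14.2%, an NF-Y box in 48.0% against 36.4%, the cyclic AMP response element in 4 of 50 against 2.59%, NRF1 in 6.00% against 4.26% and the CHR element in 10.0% against 12.1%. These are matches of letters and not binding sites.

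Neighbouring 5′ ends on the other strand were common, although shared use of a promoter was not tested. Of the 57 genes 20, or 35.1%, had a protein-coding gene on the other strand whose 5′ end lay within 1000 bases of their own in the deposited coordinates, as did 16.8% of tested protein-coding genes. The pairs included ATM with NPAT, PRKDC with MCM4, PALB2 with DCTN5 and XRCC6 with DESI1. Of their 21 neighbours, 18 were tested and none was called in either direction. NPAT, a regulator of histone transcription, was at 0.01 beside 0.11 for ATM. MCM4, a subunit of the replicative helicase, was at 0.07 beside 0.00 for PRKDC.

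Levels spanned a wide range, from 0.114 CPM per kb for ATRIP, the partner of ATR, to 178 for XRCC6 in GFP cells. The lowest were ATRIP, ERCC5 (0.369), RAD50 (0.607), RAD54B (0.816), FANCF (1.203) and RAD51D (1.505). ATRIP, ERCC5, RAD50, RAD54B and RAD51D are also the 5 of the 57 genes whose span is covered by at least 50% by another protein-coding gene model on the same strand. AC134772.2 covers 99.3% of ATRIP, BIVM-ERCC5 100% of ERCC5, AC116366.3 99.7% of RAD50, AC004223.3 99.9% of RAD51D and FSBP 62.8% of RAD54B. BIVM-ERCC5 and AC004223.3 were themselves listed with 0 counts in all libraries, and AC134772.2 with 190 counts in all beside 222 for ATRIP. The median level was 0.607 CPM per kb in the 5 covered genes and 7.95 in the other 52, and 1.49 and 5.29 in the 849 covered and 12850 other protein-coding genes tested. The treatment of reads that fall in more than 1 gene is not given in the sources used here, and its part in these low levels was not tested. RAD50 and NBN belong to 1 complex, yet their counts per length differed by far more than any library's spread, at 0.607 ± 0.0287 and 23.8 ± 0.157 CPM per kb (SD, n = 3).

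**Figure D4:**
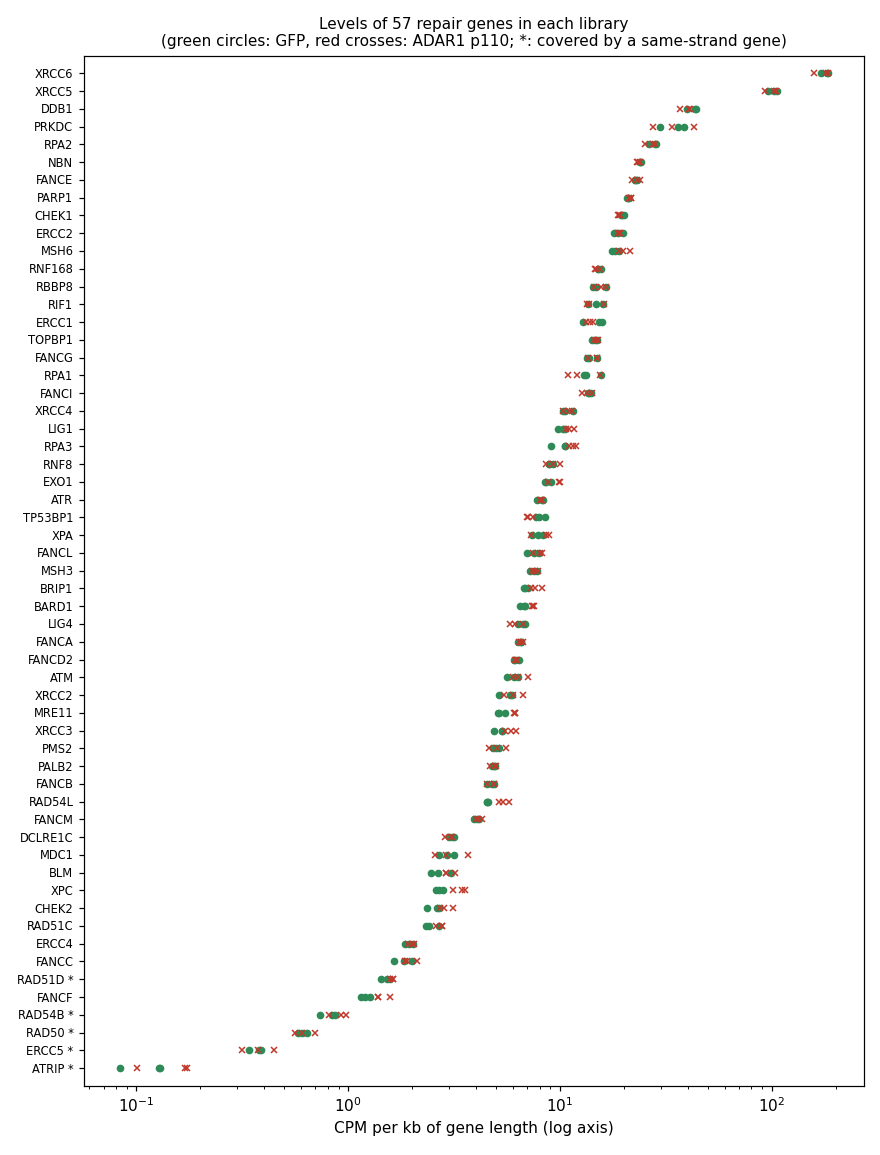
CPM per kb of gene length (horizontal log axis) of the 57 repair genes in each GFP library (green circles) and ADAR1 p110 library (red crosses), with an asterisk on genes covered by a same-strand gene model. The 5 marked genes fill the bottom of the order with FANCF, at 0.114 to 1.505 CPM per kb in GFP cells.

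For the libraries as a whole, totals ran from 72741235 to 99589278 counts, so that 0 counts leave room for a level of 0.0301 to 0.0412 CPM (counting error only), and the 57 genes took 0.506% to 0.527% of counts in GFP libraries and 0.522% to 0.532% in ADAR1 p110 libraries. ADAR, the overexpressed gene, had 991 to 1015 CPM in ADAR1 p110 libraries and 257 to 272 CPM in GFP libraries. VIM and AXL, genes of the mesenchymal state, were at 1188 CPM or more in every library. Of the 6 genes of that list CAV1 and S100A4 rose and no gene was called lower. The log2 fold change was positive for 4 of the 6 and negative for 2, down to -0.26. At an unadjusted p under 0.05 in the edgeR test 3 of the 6 were higher and 2 lower. Of 7 luminal genes 6 passed the low-count filter. KRT8 and KRT18 were at 618 CPM or more, EPCAM, GATA3, CDH1 and TFF1 at 0.427 to 10.9 CPM and FOXA1 at 0.0461 CPM or less, and CDH1 rose (log2 fold change 0.57, edgeR adjusted p = 0.00966). Of 5 leukocyte genes 2 passed the filter, LYZ and PTPRC at 0.152 to 1.24 CPM, with CD3E at 0 in all libraries. Of 5 fibroblast genes 3 passed, COL1A1, LUM and COL3A1 at 0.183 to 14.2 CPM, with DCN at 0.0507 CPM or less. Of 3 endothelial genes 2 passed, KDR at 7.11 to 10.6 CPM and VWF at 0.197 CPM or less, with CDH5 at 0.0388 CPM or less, and KDR fell (log2 fold change -0.45, edgeR adjusted p = 0.00603). The part of other cell types in the results was not tested. ADAR1 p110 replicate 1 and GFP replicate 2 stood apart on the second principal component, at 26.2 and 24.1, where the other 4 libraries lay below 0.

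The repair genes showed that separation in both directions. In 9 of the 57 genes, 15.8% beside 13.1% of all tested genes, those 2 libraries were the highest of the 6. PRKDC had 661 and 594 CPM in them and 425 to 556 CPM in the other 4, and RIF1 293 and 291 against 243 to 267. RPA1 had 85.1 and 85.8 CPM against 59.6 to 72.7, and MDC1, RNF168, RAD50, FANCC, FANCM and MSH3 were also highest in both. In 12 genes, 21.1% beside 11.99% of all tested genes, they were the lowest, among them XRCC5, XRCC6, DDB1, ERCC1 and ERCC2. The 9 genes had a median length of 8468 bases and the 12 a median of 5519.5, beside 6156 for all 57 genes. Over all tested genes the lengths were 6326 and 3479, beside a median of 3910 for the whole. For PRKDC and RPA1 the gap between these libraries and the rest exceeded the fitted difference between the groups. Leaving out libraries picked in these same data for standing apart narrows the spread within groups. More calls without them therefore add no support for any gene. Without both libraries 8 of the 57 genes were called higher (XPC, MRE11, RAD54L, MSH6, XRCC3, BRIP1, BARD1 and EXO1) and 3 lower (TP53BP1, RPA1 and ERCC1) in the edgeR test, where 1181 and 1424 of 19465 genes were. Without ADAR1 p110 replicate 1 alone 4 were higher and 2 lower, beside 795 and 1017 of 19715 genes, and without GFP replicate 2 alone 1 was higher and none lower, beside 247 and 425 of 19733. Without ADAR1 p110 replicate 2 or 3 or GFP replicate 1 or 3 none of the 57 was called, beside 100 to 147 genes higher and 296 to 336 lower over all genes tested, with 6 to 11 of the genes at an unadjusted p under 0.05.

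**Figure D5:**
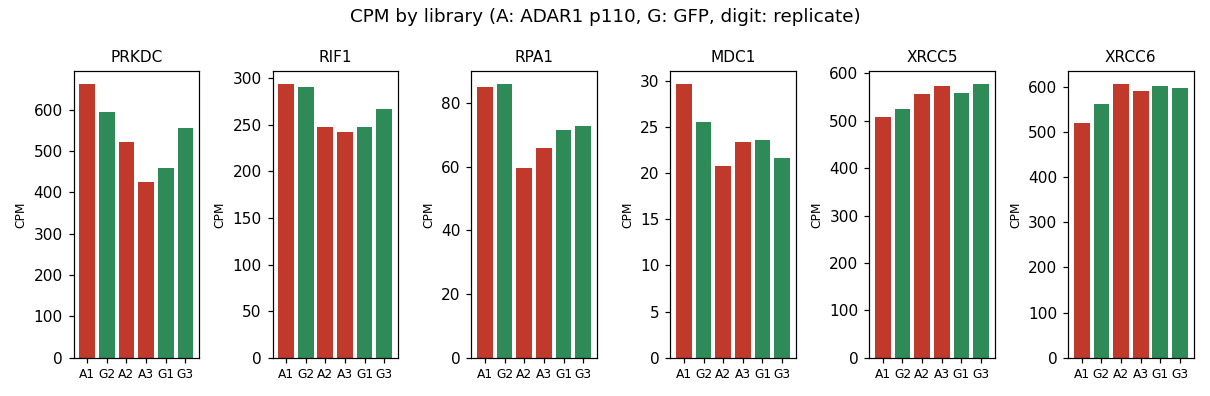
CPM (bars, vertical axis from 0) of 6 repair genes in each library (red for ADAR1 p110, green for GFP), with ADAR1 p110 replicate 1 (A1) and GFP replicate 2 (G2) first. A1 and G2 are the highest bars for PRKDC, RIF1, RPA1 and MDC1 and the lowest for XRCC5 and XRCC6.

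The other genes of these pathways were taken from lists that hold none of the 57 genes. Of 130 tested in 8 repair lists, 3 rose, 1 fell and 126 did not pass, with a median log2 fold change of 0.04. That is 2.31% higher and 3.08% called in either direction, beside 1.95% and 4.91% of all tested genes. H2AFX, the histone variant phosphorylated beside breaks, had the largest log2 fold change of the 4 called genes, with 66.4, 75.6 and 75.0 CPM against 39.7, 58.9 and 54.3 CPM (log2 fold change 0.51, edgeR adjusted p = 0.0376), and the spread among GFP libraries was wide. MAD2L2, a subunit shared by translesion synthesis and the complex that restrains resection, had 27.8, 29.6 and 27.6 CPM against 23.8, 21.9 and 24.2 CPM (log2 fold change 0.28, edgeR adjusted p = 0.0283). PRIMPOL, which reprimes stalled forks, had 10.3, 10.4 and 10.0 CPM against 8.64, 7.61 and 8.09 CPM (log2 fold change 0.34, edgeR adjusted p = 0.0306). TDG, a glycosylase of base excision repair, was the gene that fell, from 68.6, 70.8 and 69.5 CPM to 58.6, 61.6 and 60.4 CPM (log2 fold change -0.21, edgeR adjusted p = 0.0378). In each of the 4 the groups did not overlap, and calls of MAD2L2, PRIMPOL and TDG were lost in 5 of 6 fits that left out 1 library and that of H2AFX in 4. TDG also missed the threshold with library size alone (edgeR adjusted p = 0.0545) and H2AFX with a filter at 1 CPM (0.0519).

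By pathway, base excision and single-strand break repair gave 1 lower gene of 23, translesion synthesis and damage tolerance 2 higher of 15, checkpoint and chromatin signalling 1 higher of 23 and end joining 1 higher of 11, MAD2L2 being counted in translesion synthesis too. No gene passed among 17 of excision repair, 14 of mismatch repair and its replication factors, 21 of recombination and 9 of the Fanconi pathway. In the edgeR test 2, 5, 7 and 3 of these had an unadjusted p under 0.05. Those are 11.8%, 35.7%, 33.3% and 33.3%, beside 18.6% of all tested genes and 24.4% of those at an average of at least 5 CPM. The smallest p in those lists belonged to UVSSA (log2 fold change 0.24), POLD1 (0.19), MCM9 (0.22) and WDR48 (-0.17), with edgeR adjusted p of 0.213, 0.109, 0.138 and 0.0891. Of 23 tested p53 targets that respond to damage, XPC left out, none rose and 2 fell. They were CDKN1A, an inhibitor of cyclin-dependent kinases, at a log2 fold change of -0.95, and BBC3, a mediator of apoptosis, at -0.51 (edgeR adjusted p = 3.58e-06 and 0.0146). That is 8.70% called, beside 4.91% of all tested genes and 7.03% of those at an average of at least 5 CPM. At an unadjusted p under 0.05 in the edgeR test 3 of the 23 were higher and 4 lower. Those 7 are 30.4%, beside 18.6% of all tested genes and 24.4% of those at an average of at least 5 CPM. The activity of p53 in these cells was not tested. The call of BBC3 was lost without ADAR1 p110 replicate 3 (edgeR adjusted p = 0.0701) or GFP replicate 1 (0.0773), and that of CDKN1A was kept in all 6 fits that left out 1 library.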

How the data were processed

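The 6 libraries, made from total RNA, were grouped by their labels into 3 per group. The deposited table holds whole-number read counts per gene that the authors made from alignments to hg19, and STAR 2.5.2a, featureCounts 1.5.1, DESeq2 1.4.5 and R 3.1 are named in the submitters' processing notes. The strand setting, the treatment of reads in more than 1 gene and the annotation release were not given in the sources used, so reads of overlapping genes may be shared or lost. Totals of 72741235 to 99589278 counts per library set the precision.

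Genes were filtered with filterByExpr (minimum count 10), scaled by TMM and tested with edgeR 4.0.16 (R 4.3.3) by its quasi-likelihood test on the group alone, with Benjamini-Hochberg adjustment over all tested genes and a threshold of 0.05. The test was tried on simulated data first. There it recovered 26% of 50 genes changed by 1.2-fold and 100% of 50 changed by 1.5-fold, and 8.43% of its calls were false. CPM divide each count by the library's counts in tested genes, scaled by TMM. Intervals are 95% intervals of the log2 fold change. Alternatives were other scalings and filters, DESeq2 1.42.0, limma-voom 3.58.1, a replicate block and fits without libraries. The members and gene lists were chosen with earlier results of these data known. Values per library were to be given for called genes and for those of smallest p or highest level per length in each role. Further genes, chosen after their values were seen, are those whose groups did not overlap or nearly so and those that show the libraries standing apart. Promoters are RefSeq windows on GRCh38.p14, found for 50 of 57 genes by symbol, and were not joined to the hg19 coordinates. Chi-square values per degree of freedom between replicates of a group were 7.94 to 35.4, so none was counted as a duplicate.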

Additional observations from a re-analysis of the deposited data

How the results depend on the processing

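The median log2 fold change of the repair genes was 0.04 and moved to 0.0592 with library size alone. Genes called higher over the whole table numbered 368, against 742 with no low-count filter, 591 with the DESeq2 Wald test, 175 with the replicate block and 1181 without ADAR1 p110 replicate 1 and GFP replicate 2. Genes called lower numbered 559, against 333 with the block and 1424 without those libraries. Of the repair genes, 2 were called higher, against 0 with the block and 8 without those libraries, and 0 were called lower, against 3 without them. Leaving out 1 library at a time gave 0 to 4 repair genes higher and 0 to 2 lower, and 100 to 795 genes higher and 296 to 1017 lower over the whole table; the cause was not tested.

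With the replicate block the adjusted p of XPC was 0.0729 and that of MRE11 0.149 in edgeR, with log2 fold changes of 0.32 and 0.22. Deviations of libraries with the same number correlated across genes at -0.109, -0.0296 and 0.0433, and not every library correlated best with its own number. Whether libraries of the same number were handled together is not given in the labels. With 3 libraries per group these correlations cannot decide it. Of the comparisons of a named gene's value with an alternative, 279 stayed on the same side of the threshold, 37 fell short of it, 6 newly passed it and none changed direction past it. Depth limits chiefly ATRIP, with 222 counts in all 6 libraries.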
